A study of Mus musculus with 6 samples.

Results

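The small ribosomal subunit protein genes were examined in alveolar macrophages, phagocytes that live on the air side of the lung, after knockout of Rack1 in myeloid cells and in controls. Members were the rows of the deposited gene table named Rps with a number, with an optional letter or l, together with Rpsa and Fau. S6 kinases, Rps19bp1 and names ending in -ps were left out. This rule found 36 genes of 26428 in the table, all of which passed the expression filter. The samples were 3 libraries labelled Rack1{delta}Mye (knockout) and 3 labelled Rack1F/- (control), all described as alveolar macrophages from Lung of Mus musculus. The labels do not say which Cre line or which part of Rack1 was used, how old the mice were, which alleles lie behind the 2 names or whether each library is from its own animal, so p-values measure only the spread between these samples.

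The small subunit of the ribosome binds the mRNA, scans it for the start codon and hosts the decoding of each codon, and its proteins clamp the ribosomal RNA into a head, a body and a platform. RACK1, the protein whose gene was targeted, is itself a component of the head of this subunit, next to the mRNA exit, where it docks protein kinase C and takes part in the handling of stalled ribosomes. Ribosomal protein mRNAs of mammals typically open with a run of pyrimidines, the terminal oligopyrimidine (TOP) tract, through which the TOR kinase and LARP1 control their translation together.

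The starts of members with such a tract, and the promoter of the only member that passed the test, Rps3a1, are printed to show what these genes do and do not share. RefSeq promoter windows (GRCm38.p6, 250 bases before to 50 after each start) were at hand for 25 of the 36 members. A TOP-like start was counted where the base at the annotated start was C and the next 4 bases were all C or T. It was present in 7 of the 30 member windows, against 2.51% of 32851 windows of all genes. The letters CCGGAAG, the core of a site for ETS factors, stood on either strand in 12 of the 30 member windows, against 8.86% of all windows, and the letters ATGGCGG, part of a YY1 site, in 3 of 30, against 4.05%. Such a match is a description of letters and not a site. Each line gives 40 bases before the start and 20 from it, 5′ to 3′ on the gene's own strand, with the pyrimidine run from the start in capitals.
Fau: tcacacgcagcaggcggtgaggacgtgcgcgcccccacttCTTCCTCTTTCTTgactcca
Rps10: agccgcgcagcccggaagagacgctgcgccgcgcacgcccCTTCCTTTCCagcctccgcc
Rps15a: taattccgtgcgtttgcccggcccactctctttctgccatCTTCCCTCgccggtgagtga
Rps18: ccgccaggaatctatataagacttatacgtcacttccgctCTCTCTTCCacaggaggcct
Rps21: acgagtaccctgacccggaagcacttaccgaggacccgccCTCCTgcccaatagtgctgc
Rps27: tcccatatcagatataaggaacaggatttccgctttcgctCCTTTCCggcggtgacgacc
Rps6: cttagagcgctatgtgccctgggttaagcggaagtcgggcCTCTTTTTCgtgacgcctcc

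These windows lie at chr19:6057907-6057966 on the plus strand (Fau), chr17:27635225-27635284 on the minus strand (Rps10), chr7:118116128-118116187 on the minus strand (Rps15a), chr17:33955646-33955705 on the minus strand (Rps18), chr2:180257339-180257398 on the plus strand (Rps21), chr3:90213629-90213688 on the minus strand (Rps27) and chr4:86857348-86857407 on the minus strand (Rps6). The log2 fold changes of these 7 genes, knockout over control, ran from -0.24 for Rps21 to 0.27 for Rps10, and none passed the edgeR test. Rps3a1 has no such run at its RefSeq start. In the deposited table the gene reaches to 86142702, upstream of the RefSeq start. Its window at chr3:86142649-86142708 on the minus strand carries CCGGAAG, in capitals, which begins 9 bases before the RefSeq start. By the deposited coordinates these letters lie inside the gene. The same letters stand, not in capitals, in the printed lines of Rps10 and Rps21, and elsewhere in the windows of Rps18 and Rps6. In the deposited table Fau, Rps10, Rps15a and Rps6 also begin upstream of their RefSeq starts, before the first base printed for them.
Rps3a1: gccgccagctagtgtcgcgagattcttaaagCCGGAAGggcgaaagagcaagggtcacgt

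Estimated counts summed to 51894849 to 56082536 units per knockout library and 54871157 to 66163430 units per control library, and a read pair was worth about 4 units. Of the 10 alveolar macrophage markers examined all were detected, and they summed to 88321 to 157874 CPM in knockout and 76364 to 151454 CPM in control libraries. Most of this sum was Chil3 (76924 to 141708 CPM in knockout, 71008 to 142869 CPM in control). Of the 10 markers 2 were called higher and 2 lower. Car4 (4866 to 7042 CPM in knockout, 943 to 1164 CPM in control) was higher in every knockout library, and so was Marco. Siglecf (98.4 to 112.6 CPM in knockout, 153.3 to 171.2 CPM in control) was lower in every knockout library, and so was Krt79. Markers of B cells summed to at most 1.71 CPM in any library, and T cell markers to 406.4 to 688.6 CPM in knockout and 371.8 to 510.2 CPM in control, mostly Cd2. Neutrophil markers (75.0 to 87.2 CPM in knockout, 21.2 to 36.8 CPM in control), monocyte and interstitial macrophage markers (37.9 to 84.8 CPM and 17.2 to 28.2 CPM) and alveolar type 2 markers (8.08 to 23.9 CPM and 2.46 to 7.02 CPM) were higher in sum in every knockout library, and markers of dividing cells (23.9 to 38.9 CPM and 46.9 to 53.3 CPM) were lower. The neutrophil sum came mainly from Retnlg (63.2, 51.3 and 44.1 CPM in knockout, 0, 0.243 and 11.9 CPM in control), while Ly6g was at 0 in every knockout library and 2 of the 5 neutrophil markers were called lower. The monocyte sum came mainly from C1qa (33.0 to 64.3 CPM in knockout, 13.1 to 23.3 CPM in control) and the alveolar type 2 sum from Sftpc (6.75 to 18.5 CPM and 2.16 to 6.03 CPM). Erythroid genes summed to 1063 to 1736 CPM in knockout and 143.2 to 1125 CPM in control, with overlap. No listed marker was at 0 in all libraries, and the part of these cells in the values of the small subunit genes was not tested. The sex of the animals is not given. Sex-linked genes differed between libraries. The Y-linked Eif2s3y and Ddx3y were highest in knockout replicate 1 and next highest in knockout replicate 2. Eif2s3y was at 16.0, 2.68 and 0.681 CPM in knockout and 0.422, 0.357 and 0.560 CPM in control. Ddx3y was at 8.45, 3.16 and 0.282 CPM in knockout and 0.532, 0.519 and 0.501 CPM in control. Xist, expressed from the inactive X chromosome, was at 0.741, 10.4 and 13.1 CPM in knockout and 70.6, 13.8 and 13.4 CPM in control. It was thus lowest in knockout replicate 1 and highest in control replicate 1. Without knockout replicate 1 the median log2 fold change of the members was 0.01, and 0 were called in either direction. Without knockout replicate 2 or without control replicate 1, 0 members were called in either direction as well. The same held without knockout replicate 3 or control replicate 2, and leaving out any single library also lowered the calls among all genes. The part of sex in the members' values was not tested.

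Rack1 was checked as the targeted gene. Its level in counts-per-million (CPM), scaled between libraries by the TMM method, was 38.6, 38.2 and 34.1 in knockout and 77.3, 83.5 and 81.1 in control. Set against the median small subunit gene of the same library, Rack1 lay at -1.87, -2.05 and -2.00 on the log2 scale in knockout, and at -0.95, -0.94 and -0.67 in control. Every knockout library lay below every control library on this ratio too, which was not tested. On the TMM scale Rack1 fell, with a log2 fold change of -1.12 and a standard error (SE) of 0.114 (adjusted p = 0.000207 by the quasi-likelihood test of edgeR).

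The comparison of knockout with control asked whether the transcripts of the other small subunit proteins moved with the loss of Rack1 mRNA. Rps3a1 was lower, and 35 of 36 members did not pass the test in either direction. Lower calls were thus 1 of 36 members, against 6.01% of all 14797 genes tested, and higher calls 0 of 36, against 5.93% (edgeR adjusted p under 0.05). At an unadjusted p under 0.05 there were 4 lower and 0 higher members, where 25.4% of all genes lay under it in either direction. DESeq2 called 4 members lower and 0 higher, against 1169 lower and 1083 higher of 26393 genes. The median log2 fold change of the members was -0.07, beside 0.01 over all genes tested, with 22 members below 0 and 14 above. Without control replicate 3 these medians were -0.20 and 0.02, and whether the members as a group differ from other genes was not tested. The extremes were Rps28 at -0.47 and Rps27a at 0.35, 25 members lay within 1.2-fold either way, and 31 within 2 SE of no change. In simulated counts of this design the test found 7.46% of genes changed 1.5-fold and 56.7% of those changed 2-fold. The changed genes there reached down to levels far below those of most members. The simulation also gave only 115 calls, against 1767 in the data. These shares therefore do not tell how often a change of that size in a member would be called.

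**Figure D1:**
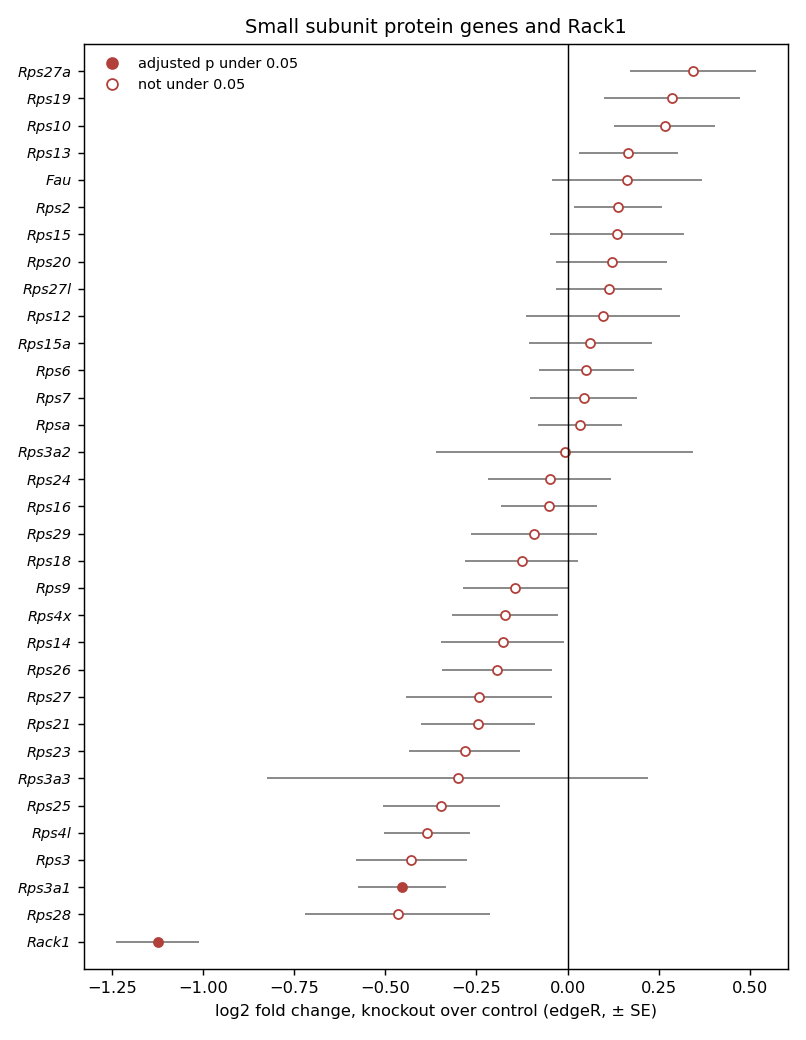
Log2 fold change of 32 small subunit genes and of Rack1, knockout over control, with SE bars from edgeR; filled points have an adjusted p under 0.05. Rack1 lies at -1.12, apart from the 32 genes drawn, which run from -0.47 to 0.35, and Rps3a1 is the only filled member.

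The summed level depended on the scale. With TMM scaling, which centres the bulk of genes, the 36 genes summed to 6708, 7791 and 6506 CPM in the knockout libraries, in the order of replicates 1, 2 and 3 used throughout, and to 7619, 7965 and 5952 CPM in the control libraries. The groups overlapped, and control replicate 3 was the lowest of all 6 libraries. The means were 7002 ± 691.1 CPM in knockout and 7179 ± 1077 CPM in control (SD, n = 3 each).

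As a share of all estimated counts of a library, the same genes took 0.549%, 0.622% and 0.709% in knockout and 0.732%, 0.895% and 0.771% in control. On this scale every knockout library lay below every control library. The median log2 fold change of the members was then -0.38 and that of all genes tested -0.31, so most of the difference was one that the typical gene showed too. On library totals 35 of 36 members had a negative log2 fold change, so the positive signs given for single members below, Rps27a apart, turn round on that scale. In this scaling 3 members were called lower, Rps3a1 and Rps3 among them, against 6.31% of all genes, and 0 higher. The knockout libraries all lay below the control libraries for 17 of 36 members, against 23.2% of all genes, and all above for 0 of 36, against 5.09%. In bulk RNA, fewer cells of a type and less RNA per cell cannot be told apart.

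**Figure D2:**
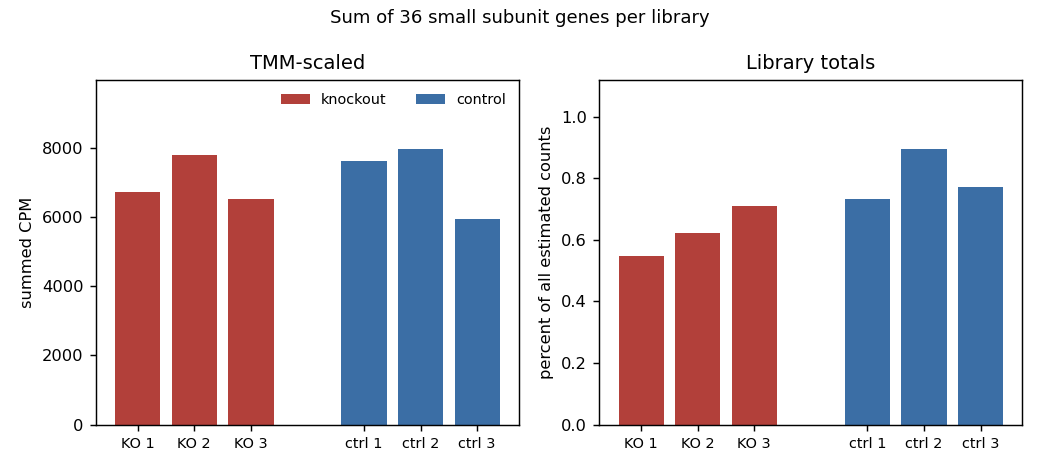
Sum of the 36 small subunit genes in each library, as TMM-scaled CPM and as a percentage of all estimated counts (KO, knockout; ctrl, control). The groups overlap in CPM, between 5952 and 7965, but not as a share of counts, where knockout libraries lie between 0.549% and 0.709% and control libraries between 0.732% and 0.895%.

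The members moved together from library to library within a group. Of the 34 members above 10 CPM, 27 had their highest knockout value in replicate 2. In control, 26 had their highest value in replicate 2 and 30 their lowest in replicate 3. Control replicate 3 also had the largest TMM factor, 1.30, and knockout replicate 2 the smallest, 0.799. The spread within control was over 15% of the mean for 18 of these 34 genes, and within knockout for 11.

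Rps3a1 encodes eS1, a protein of the platform beside the mRNA exit. The gene (ENSMUSG00000028081) lies on chromosome 3 at 86137940 to 86142702 on the minus strand of GRCm38. Its level was 102.1, 91.4 and 89.6 CPM in knockout and 126.6, 141.8 and 119.4 CPM in control. Every knockout library lay below every control library. The means were 94.4 ± 6.73 CPM in knockout and 129.3 ± 11.4 CPM in control (SD, n = 3 each), 1.37-fold lower in knockout, with a log2 fold change of -0.45 and an SE of 0.122 (edgeR adjusted p = 0.0354).

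This call was a narrow one. It was kept without control replicate 3 (edgeR adjusted p = 0.0419) and lost without control replicate 1 or 2 (0.0981 and 0.129) or knockout replicate 1, 2 or 3 (0.0594, 0.101 and 0.103), while the log2 fold change stayed between -0.51 and -0.39. Rps3a2 and Rps3a3, annotated as processed pseudogenes, have names of the same family and were the members with the lowest mean FPKM. Rps3a2 was at 1.22, 1.33 and 1.28 CPM in knockout and 1.41, 1.248 and 1.19 CPM in control, and Rps3a3 at 0.479, 0.700 and 0.515 CPM in knockout and 0.789, 0.551 and 0.746 CPM in control. Both overlapped between the groups, at log2 fold changes of -0.01 and -0.30 with SEs of 0.353 and 0.524.

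RPS3 and RPS16 lie beside RACK1 on the head, and neither of their genes passed the edgeR test with all 6 libraries on the TMM scale. Rps3, whose protein lines the mRNA entry channel, stood at 301.8, 268.6 and 264.1 CPM in knockout and 394.6, 422.7 and 306.1 CPM in control. Its groups did not overlap, but control replicate 3 came close to knockout replicate 1, and the log2 fold change was -0.43 with an SE of 0.152 (edgeR adjusted p = 0.101). Without control replicate 3 the log2 fold change of Rps3 was -0.56 and passed the test (edgeR adjusted p = 0.0397). Rps3 was also called lower with DESeq2 (adjusted p = 0.0194) and with edgeR on library totals (0.0206). So it was with limma on log2(FPKM + 1) (0.0147) and log2(FPKM + 0.1) (0.0165). It was not called with edgeR at a minimum of 10 CPM (0.0937) or with limma on scaled FPKM (0.0777).

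Rps16, whose protein reaches with its tail toward the transfer RNA in the peptidyl site, was at 146.9, 172.6 and 161.4 CPM in knockout and 171.7, 181.0 and 145.6 CPM in control. The groups overlapped, with a log2 fold change of -0.05 (edgeR adjusted p = 0.864).

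Stalled and collided ribosomes are marked by ubiquitin on RPS10 and RPS20, attached by ZNF598 in mammals, and on RPS2 and RPS3. Of these 4 genes 0 passed the test, and 3 had a positive log2 fold change. Rps10 stood at 62.6, 86.3 and 71.6 CPM in knockout and 57.8, 65.6 and 59.9 CPM in control, with a log2 fold change of 0.27 and an SE of 0.138 (edgeR adjusted p = 0.262). Its knockout values were mostly the higher ones, with knockout replicate 1 inside the control range.

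Rps20 was at 125.6, 165.6 and 133.0 CPM in knockout and 131.1, 148.8 and 110.1 CPM in control. Rps2, whose protein lines the entry channel with RPS3, was at 157.7, 177.7 and 165.5 CPM in knockout and 156.9, 159.3 and 138.7 CPM in control. The groups overlapped for both, at log2 fold changes of 0.12 and 0.14 (edgeR adjusted p = 0.69 and 0.536).

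Rps14, Rps26 and Rps28 encode proteins of the mRNA exit side. Of these 3 genes 0 passed the test, and their log2 fold changes were -0.18, -0.19 and -0.47. Rps28 stood at 20.2, 40.7 and 32.5 CPM in knockout and 40.7, 56.4 and 32.0 CPM in control. It had the lowest log2 fold change of the members and also wide groups, which overlapped (SE 0.255, edgeR adjusted p = 0.29). The values by library of Rps28 and Rps19 are given because of their changes, after these had been seen.

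Rps27a and Fau are made as fusions that are cut after translation. Rps27a releases ubiquitin together with eS31, and Fau releases a ubiquitin-like protein together with eS30. Rps27a stood at 205.9, 246.3 and 205.2 CPM in knockout and 195.3, 193.7 and 128.4 CPM in control. It was the only member with every knockout library above every control library, against 15.3% of all genes tested, and 4 members had the opposite pattern, Rps3a1, Rps3 and Rps4l among them, against 15.9%. Its log2 fold change was 0.35 with an SE of 0.173, which did not pass the test (edgeR adjusted p = 0.245). On library totals its log2 fold change was 0.04. Fau was at 661.7, 820.4 and 546.0 CPM in knockout and 721.1, 636.0 and 454.8 CPM in control, with overlap (log2 fold change 0.16, edgeR adjusted p = 0.692).

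**Figure D3:**
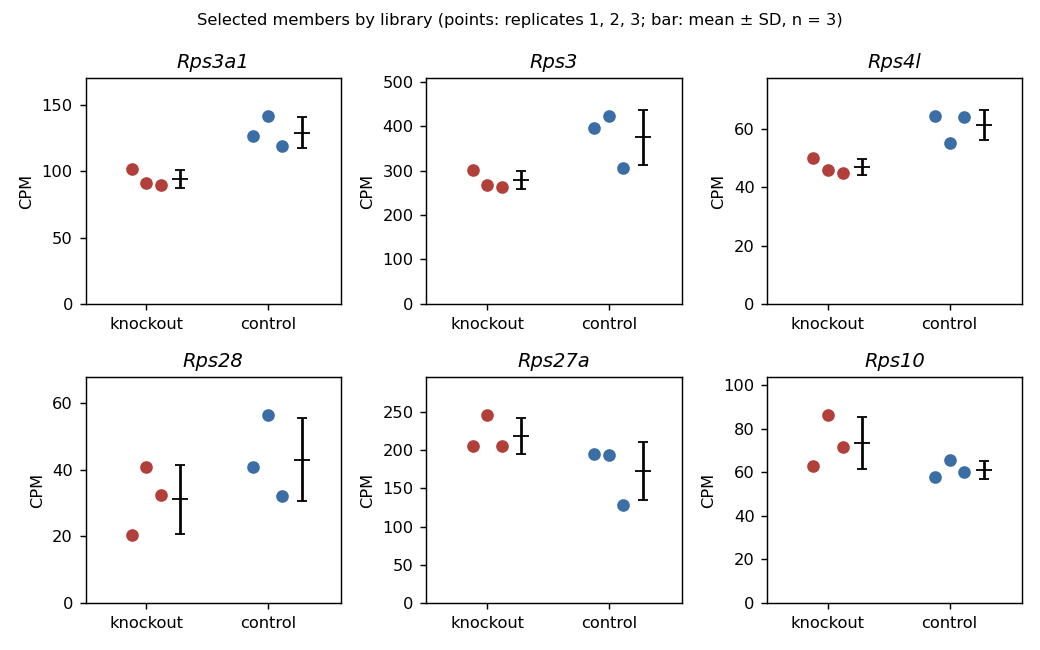
CPM of 6 members in each library, with points in the order of replicates 1, 2 and 3 and bars for the mean and SD (n = 3). Rps3a1, Rps3 and Rps4l lie lower in all 3 knockout libraries than in any control library and Rps27a lies higher, while the groups of Rps28 and Rps10 overlap.

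Rps27 and Rps27l encode near-identical versions of eS27, and RPS27L is a p53 target gene in human cells. Rps27l, the more abundant of the pair, stood at 312.2, 354.4 and 291.4 CPM in knockout and 321.7, 310.4 and 252.9 CPM in control (log2 fold change 0.11, edgeR adjusted p = 0.692). Rps27 stood at 90.2, 117.0 and 90.1 CPM in knockout and 135.3, 136.7 and 79.9 CPM in control (log2 fold change -0.24, edgeR adjusted p = 0.51). The ratio of Rps27l to Rps27 was 3.46, 3.03 and 3.24 in knockout and 2.38, 2.27 and 3.16 in control, so the groups overlapped through control replicate 3. Cdkn1a, the p53 target gene that encodes the cell cycle inhibitor p21, was at 835.6 ± 59.5 CPM in knockout and 279.9 ± 17.6 CPM in control (SD, n = 3 each), a log2 fold change of 1.58 (edgeR adjusted p = 9.68e-05). The log2 fold change of Rps27l was thus far smaller than that of Cdkn1a, a difference that was not itself tested.

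Rps4x, on the X chromosome, encodes eS4, and Rps4l is a transcribed processed pseudogene on chromosome 6. Rps4l stood at 49.97, 45.8 and 45.0 CPM in knockout and 64.4, 55.2 and 64.2 CPM in control, without overlap (log2 fold change -0.38, SE 0.118, edgeR adjusted p = 0.0606). Rps4l passed the test with DESeq2 (adjusted p = 0.0299), with edgeR at a minimum of 10 CPM (0.0407) or on counts divided by 4 (0.0437), and with limma on scaled FPKM (0.0489), log2(FPKM + 1) (0.0249) and log2(FPKM + 0.1) (0.0281). Rps4x was at 123.1, 97.1 and 109.2 CPM in knockout and 127.0, 140.5 and 103.9 CPM in control, with overlap (log2 fold change -0.17, edgeR adjusted p = 0.52). Reads that match both cannot be assigned with certainty.

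Genes for proteins of the head and of the body and platform were counted apart, where 6.01% of all genes tested fell and 5.93% rose. At those shares, counts in lists this short say nothing particular about them. Of 14 head genes 0 rose and 0 fell, with a median log2 fold change of -0.03 and a range from -0.47 for Rps28 to 0.35 for Rps27a. Of 18 body and platform genes 0 rose and 1 fell, with a median of -0.13 and a range from -0.45 for Rps3a1 to 0.17 for Rps13. Rps6, whose protein is the substrate of the S6 kinases, was near no change at a log2 fold change of 0.05 with an SE of 0.13. Rpsa, which encodes the subunit protein also known as the laminin receptor, was at 0.03 with an SE of 0.115. Of the 10 small subunit genes listed as mutated in human Diamond-Blackfan anaemia 0 passed the test in either direction, at a median of -0.03. Rps19, the gene most often mutated in that disease, stood at 609.2, 737.9 and 527.7 CPM in knockout and 544.4, 593.4 and 399.3 CPM in control, with overlap (log2 fold change 0.29, SE 0.187, edgeR adjusted p = 0.388).

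Of the members not yet given, the lowest log2 fold changes were those of Rps25, at -0.35 with an SE of 0.16, and Rps23, at -0.28 with an SE of 0.153. Rps25 encodes a head protein that several viral internal ribosome entry sites need, and was at 147.0, 185.8 and 162.6 CPM in knockout and 209.0, 249.5 and 171.2 CPM in control (edgeR adjusted p = 0.207). Rps23 encodes uS12, a protein of the decoding centre, and was at 114.8, 144.8 and 133.9 CPM in knockout and 154.1, 189.6 and 134.8 CPM in control (edgeR adjusted p = 0.286). For both the groups met only through control replicate 3.

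Rps9, Rps18, Rps29 and Rps24 had log2 fold changes between -0.14 and -0.05, and Rps7, Rps15a, Rps12 and Rps13 between 0.04 and 0.17. The groups overlapped in every case. Rps13, whose protein sits at the contact with the large subunit, was at 158.1, 212.8 and 174.7 CPM in knockout and at 163.0, 160.4 and 162.7 CPM in control, where the 3 values lay close together.

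The balance among the subunit transcripts does not depend on the scaling of libraries. Each gene was set against the median member of its own library on the log2 scale, as a description with no test. By this measure 7 members were lower in every knockout library (Rps3a1, Rps3, Rps23, Rps25 and Rps26 among them), where 13.4% of all genes were, and 3 were higher (Rps27a, Rps19 and Rps2), where 13% of all genes were.

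Rps3 lay 1.099, 0.76 and 0.95 above the member median in knockout and 1.41, 1.40 and 1.246 above it in control. Rps3a1 lay at -0.46, -0.80 and -0.61 in knockout and at -0.23, -0.17 and -0.11 in control, and Rps27a at 0.55, 0.63 and 0.59 in knockout and at 0.39, 0.28 and -0.01 in control. The number of Rps27a CPM per Rps3 CPM was accordingly 0.682, 0.917 and 0.777 in knockout and 0.495, 0.458 and 0.420 in control, a pair chosen after the values were seen. All other members, 26 in number, overlapped between the groups.

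**Figure D4:**
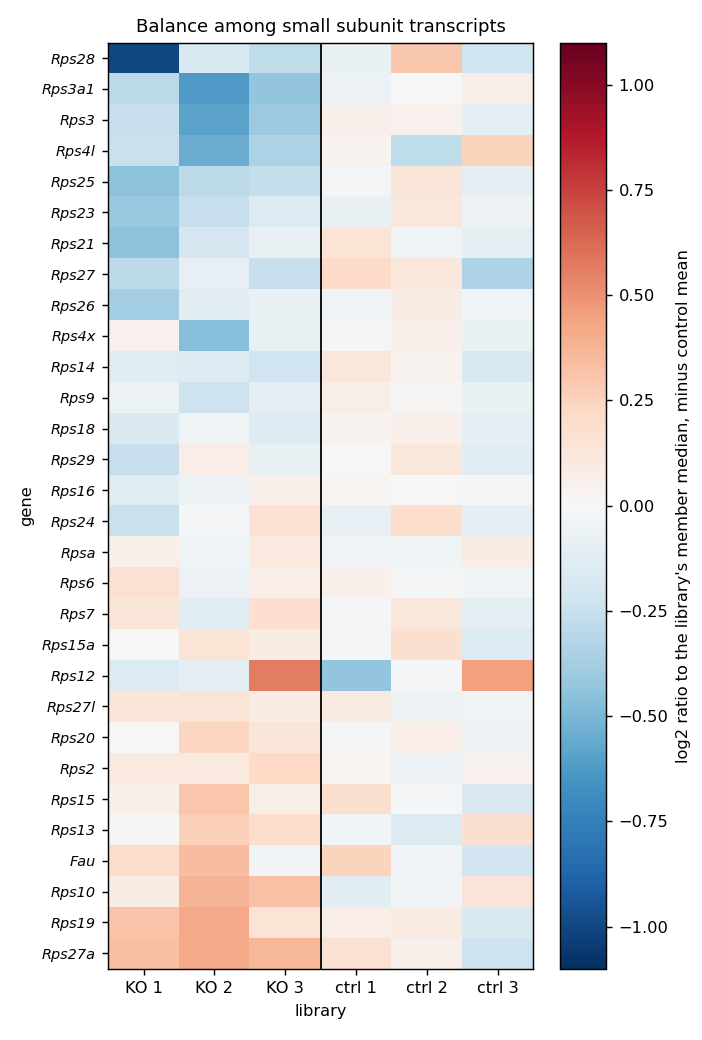
Log2 ratio of each of 30 members above 10 CPM to the median member of the same library, minus the mean of that ratio over the control libraries (KO, knockout; ctrl, control). Genes are ordered by the difference between groups, from Rps28 with -0.48 at the top to Rps27a with 0.37 at the bottom; the single darkest cell is Rps28 in knockout replicate 1.

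Levels of different members were compared as CPM per kilobase of the longest coding sequence in GENCODE M21, for the 33 members that have one. Fau was highest at 1604 ± 322.3 (SD over all 6 libraries). Rps27l (975.2 ± 107.0), Rps14 (940.9 ± 146.8), Rps15 (925.6 ± 162.1) and Rps19 (894.1 ± 174.8) were among the next highest and differed from one another by less than their spread. At the low end stood Rps4x (148.0 ± 20.6), Rps3a1 (141.2 ± 26.4) and Rps10 (132.7 ± 20.7), again within their spread, and then Rps12 at 49.2 ± 10.6. The SD includes shifts that members shared from library to library, so it is not the spread of a difference between members. The median over members was 372.6, and the highest and lowest levels differed 32.6-fold, or 12.1-fold without Rps12. These levels and folds depend on the length chosen. Rps3, for example, has 729 coding bases, while the union of its annotated exons has 4483.

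Sequence copies bear on these levels. Rows of processed copies named -ps existed for 22 of the 36 genes, and their counts came to 79.9% of the parent's for Rps12, 30.1% for Rps10, 16.0% for Rps18 and 11.6% for Rps7, with a median of 1.70% over the 22. The assignment of reads that match both parent and copy was not given in the sources used here, which leaves the levels of at least these 4 genes uncertain. Processed pseudogenes under other names, such as Rps3a2, Rps3a3 and Rps4l, were not in these rows. The levels of other members can therefore be affected too. The -ps rows summed to 169.3 to 216.6 CPM in knockout and 173.0 to 204.3 CPM in control, and 0 of the 52 tested passed the test in either direction. The deposited FPKM of every member equalled its count divided by the union of all annotated exons, within 5% for 36 of 36. This union was as long as the longest transcript for Rps3a1, Rps3a2, Rps3a3 and Rps4l, and exceeded it for every other member. FPKM is therefore lower, for the same count, in genes whose annotated transcripts include retained introns. Rps3, with a longest transcript of 3183 bases and an exon union of 4483 bases, had a mean FPKM of 70.2, and Rps15, with 572 and 630 bases, had 599.5. Fau and Rps15 had the highest mean FPKM of the members. Rps15, whose protein has a tail that reaches into the decoding centre, was at 380.6, 511.3 and 373.2 CPM in knockout and 437.6, 412.3 and 300.8 CPM in control, with overlap (log2 fold change 0.14, edgeR adjusted p = 0.713).

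The other ribosomal protein genes are given for comparison, beside 5.93% of all genes tested called higher and 6.01% called lower. Of 55 tested genes of the large subunit 0 were higher and 1 was lower, with a median log2 fold change of 0.01, and they summed to 11385, 12940 and 10215 CPM in knockout and 12491, 12624 and 9160 CPM in control. Their order over the libraries was that of the small subunit genes within each group. Of 29 genes of the mitochondrial small subunit 0 were higher and 2 were lower, with a median of -0.03.

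Genes that build the small subunit or act on its mRNAs were examined from lists. Of 52 tested assembly factors of the subunit 1 rose and 4 fell, with a median log2 fold change of -0.07. Rcl1, an rRNA processing factor, was at 11.2 ± 0.653 CPM in knockout and 18.6 ± 1.496 CPM in control. Utp18, a part of the early processing complex, was at 11.01 ± 1.78 CPM in knockout and 18.7 ± 1.97 CPM in control. Ltv1, a late assembly factor of the head, was at 16.1 ± 1.04 CPM in knockout and 25.6 ± 3.72 CPM in control, a log2 fold change of -0.67. Tbl3 fell as well, with a log2 fold change of -0.59, and Rrp12 rose, at 5.55 ± 0.858 CPM in knockout and 3.20 ± 0.0892 CPM in control.

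Of 10 tested genes of the rRNA modification core 0 rose and 2 fell, with a median of -0.29. Nop10, a subunit of the pseudouridylation complexes, was at 71.1 ± 7.70 CPM in knockout and 144.0 ± 16.2 CPM in control, and Snu13, a protein of the box C/D complexes, had a log2 fold change of -0.39. Of 15 genes of RNA polymerase I transcription and Myc 1 rose and 2 fell, with a median of -0.12. Myc, a transcription factor that drives ribosome production, was at 34.6 ± 2.58 CPM in knockout and 52.1 ± 4.37 CPM in control.

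Of 18 regulators of TOP mRNAs and TOR signalling 1 rose and 1 fell. Larp1, whose protein binds the TOP tract, was at 30.5 ± 2.48 CPM in knockout and 21.8 ± 2.46 CPM in control, and Cnbp, whose protein also binds TOP mRNAs, was at 235.9 ± 10.5 CPM in knockout and 353.3 ± 14.8 CPM in control. Of 16 tested genes of the response to collided ribosomes 2 rose and 1 fell. Usp10, which removes ubiquitin from small subunit proteins, was at 11.1 ± 0.647 CPM in knockout and 6.93 ± 1.02 CPM in control, and Rnf14, an E3 ligase of stalled ribosomes, had a log2 fold change of 0.59. Usp21, a further deubiquitinase of the subunit, was at 8.34 ± 1.52 CPM in knockout and 14.8 ± 1.54 CPM in control. Of 8 tested S6 kinase genes 0 passed the test in either direction, at a median of -0.34. Beside each of these lists, 11.9% of all genes tested were called (edgeR adjusted p under 0.05), and values are mean ± SD with n = 3.

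Small subunit genes are short, so coding length was looked at. Genes with a coding sequence of up to 300 bases, 4 members among them, had a median log2 fold change of -0.08 over 286 genes. Those above 300 and up to 600 bases, with 20 members, had 0.01 over 1553 genes. The band up to 900 bases, with 8 members, had 0.03 over 1863 genes, and that up to 1500 bases, with 1 member, had -0.01 over 3513 genes. In the shortest band 11.9% were called lower and 8.74% higher, where 6.01% and 5.93% of all genes were. In the next band these shares were 6.25% and 7.41%. The part of length in the members' values was not tested.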

How the data were processed

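Total RNA was extracted with TRIzol and made into libraries with NEBNext Ultra reagents, per the labels' protocols. Per the submitters' processing notes, the build was GRCm38 and the tools were HISAT2, StringTie, FastQC, cutadapt, edgeR and DESeq2, with no role for each. The estimated counts were deposited by the authors as whole numbers for every gene and library, per the file headers. FPKM values were deposited by the authors beside them, per the file headers. In genes with 1 transcript the counts pile up at 4 (874 genes at 4, against 414 at 3 and 205 at 5, in knockout replicate 1), so a read pair was taken as about 4 units. The handling of copies and strands was not given in the sources used here.

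Low genes were removed with filterByExpr of edgeR, and libraries were scaled by TMM and compared by a quasi-likelihood test on the estimated counts with no covariate, with Benjamini-Hochberg adjustment over 14797 genes at 0.05. An SE is the fitted log2 fold change divided by the root of its F statistic. Member medians and ratios to them have no test. Statistics ran in edgeR 4.0.16, with DESeq2 1.42.0 and limma 3.58.1 for alternatives, under R 4.3.3. Tables and plots used matplotlib 3.10.9, numpy 2.4.6 and pandas 2.3.3 under Python 3.11.15. On counts simulated for 14181 genes, 87.9% of 4-fold changes were recovered, and 14 of 115 calls were false. Replicate correlations of log2 CPM across genes lay between 0.952 and 0.966 for libraries of the same group and between 0.924 and 0.936 otherwise. Members, gene lists and role groups were chosen with earlier results of these data known. Named genes are Rack1, called members, the highest and lowest by FPKM, and the members of fixed role groups and lists. A few members are not reported here by name and are included in counts, sums and medians. Of 26428 genes, 26359 were found in GENCODE M21. The values by library of Rps25, Rps23 and Rps13, like those of Rps19 and Rps28, and Cdkn1a, were chosen after values were seen. Alternatives covered scaling, filters, DESeq2, limma on FPKM, counts divided by 4, omission of single libraries and the replicate number as a block.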

Additional observations from a re-analysis of the deposited data

How the results depend on the processing

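The members' median log2 fold change was -0.07, between -0.20 and 0.01 when single libraries were left out (0.01 without knockout replicate 1 and -0.20 without control replicate 3, where all genes had 0.01 and 0.02), and between -0.10 and -0.03 with other size factors, filters, DESeq2, limma on FPKM divided by size factors, counts divided by 4 or the replicate block. With library totals it became -0.38 (all genes -0.31), with limma it became -0.37 on both log2(FPKM + 1) and log2(FPKM + 0.1) (all genes -0.27 and -0.35), and -0.35 once no filter was used (all genes -0.02). These 4 settings also moved the count of all genes called higher to 290, 245, 245 and 41 (878 with TMM), and limma without a filter left 131 lower calls (889 with TMM). Lower calls among the 34 to 36 members tested were 3 on library totals, 2 at a minimum of 10 CPM and 4 with DESeq2. All genes called lower there were 933 of 14797, 630 of 5333 and 1169 of 26393. With limma 7 and 6 members were called lower on log2(FPKM + 1) and log2(FPKM + 0.1), 2 on scaled FPKM and 0 without a filter. Beside them stood 1108, 1112 and 789 of 8245 genes, and 131 of 26428 without a filter. On counts divided by 4 there were 2 members, against 943 of 11805 genes. Lower members numbered 0 to 2 when single libraries were left out. Higher calls among members were 0 under every setting run. Leaving out single libraries gave 455 to 691 higher and 372 to 565 lower genes in all. With the replicate number as a block, 770 genes were higher and 699 lower, and 0 members were lower, with Rps3a1 at adjusted p = 0.0504. Deviations from the group means of same-numbered libraries correlated at 0.0276, -0.0398 and 0.000329, so the numbers were not taken as pairs. The cause of these differences was not tested. Rps3a1 had an adjusted p of 0.0043 to 0.129 over its alternatives, always with a negative fold change.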
